A study of Mus musculus with 6 samples.

Results

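This account covers 36 genes, 27 immediate-early genes and 9 heat-shock genes. Many of them respond within minutes to stimulation or to protein damage, and are also known to be induced while tissue is digested and sorted. Others, such as Hspa8, are also expressed in unstressed cells. The genes were taken by symbol from a fixed list, and all 36 were found among the 32285 features of the deposited count table. All 36 passed the filter on low counts, which kept 12568 genes. The cells were type 1 conventional dendritic cells (cDC1s), which present captured antigen to CD8 T cells, sorted by flow cytometry from digested mLNs of C57BL/6 mice. Every mouse had been given 50 µg of house dust mite extract (HDM) through the nose 24 h before the sort. Wild-type mice (WT, 3 libraries) were compared with Vps33BdeltaDC mice (KO, 3 libraries), a conditional knock-out of Vps33b, which encodes a protein of endosomal and lysosomal trafficking. The labels do not name the recombinase line that drives the deletion, the age of the mice, or the number of animals behind a library. Whether libraries of 1 group are from different animals is not stated either, so a p-value here covers only how these samples varied, and that variation may be technical.

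Immediate-early genes are transcribed from pre-loaded promoters without new protein synthesis. Kinase cascades act on factors such as SRF and CREB that are already bound there, and the products include transcription factors (FOS, JUN, EGR, KLF, NR4A) and proteins that switch the response off again, such as MAP-kinase phosphatases and mRNA decay factors. Heat-shock genes are induced by the factor HSF1 when unfolded protein draws chaperones away from it, and they encode the chaperones that refold or hold such protein. In dendritic cells, stimulation through pattern receptors switches on the same immediate-early genes, so enzyme digestion, sorting and activation in the animal cannot be told apart from transcript levels alone.

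Depth and purity were checked first. The libraries held between 11755944 and 18450678 counts. Vps33b was at 16.2, 19.1 and 13.8 CPM (counts scaled by library total and TMM factor) in WT, whereas KO was at 5, 7.01 and 8.29 CPM, without overlap. The 13 cDC1 markers were all present and summed to between 3322 and 3540 CPM in WT and between 3132 and 3678 CPM in KO, sums carried mostly by Irf8 and Flt3. The defining receptor gene Xcr1 was low, at 13.5, 44.6 and 13.1 CPM in WT against 9.42, 5.72 and 11.4 CPM in KO. Each KO library was below each WT library for Xcr1, and also for the cDC1 markers Wdfy4 and Itgax (edgeR adjusted p = 0.834 for each). Of all genes tested, 5.19% lay below in this way. The groups overlapped for the other cDC1 markers, including Irf8 and Cd24a, whose highest libraries were in KO. The part of these marker levels in the results below was not tested. Of 10 monocyte and macrophage markers, of which F13a1 was at 0 in 5 of the 6 libraries, the sum was 302, 174 and 189 CPM over the WT libraries, against 170, 153 and 620 CPM over those of KO. KO replicate 3 had the highest sum, carried by Lyz2 at 468 CPM, and the highest level for 5 of the 10 markers, and the part of these transcripts in the results below was not tested. The sums were 48.7 to 67.8 CPM for 7 T cell markers, 10.2 to 36.2 CPM for 5 B cell markers and 0.724 to 8.2 CPM for 6 neutrophil markers. In bulk RNA, fewer cells that express a gene and less RNA per cell cannot be told apart.

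The immediate-early genes are compact. The main transcript had a median of 2 exons and the gene a median span of 5.16 kb, against 9 exons and 23.4 kb over the 11812 protein-coding genes tested. A single exon was annotated for 6 of the 27 (Jun, Junb, Jund, Ier2, Ier5 and Rhob), or 22.2%, against 2.51% of all protein-coding genes tested. The heat-shock genes had a median of 9 exons, although Hspa1a and Hspa1b have 1 each.

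Inducible HSP70 had the widest spread between libraries among members at a mean of at least 100 CPM. Hspa1a (ENSMUSG00000091971, chromosome 17, 34969190 to 34972156, minus strand, mm10) and Hspa1b (ENSMUSG00000090877, chromosome 17, 34956436 to 34959238, minus strand) are neighbouring single-exon genes that encode the stress-induced cytosolic chaperone. Their upstream sequences are shown for comparison, and a link between these sequences and the levels of the genes was not tested. Of the 250 bases before the RefSeq start (GRCm38.p6), 247 are identical, and capitals mark the 3 that differ. Hspa1a spans chr17:34972157-34972406 and Hspa1b chr17:34959239-34959488, both on the minus strand.
Hspa1a: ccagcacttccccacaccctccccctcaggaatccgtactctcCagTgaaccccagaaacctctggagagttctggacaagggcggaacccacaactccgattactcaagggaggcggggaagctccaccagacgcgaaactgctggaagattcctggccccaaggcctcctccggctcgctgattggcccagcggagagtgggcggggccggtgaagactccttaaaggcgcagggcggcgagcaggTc
Hspa1b: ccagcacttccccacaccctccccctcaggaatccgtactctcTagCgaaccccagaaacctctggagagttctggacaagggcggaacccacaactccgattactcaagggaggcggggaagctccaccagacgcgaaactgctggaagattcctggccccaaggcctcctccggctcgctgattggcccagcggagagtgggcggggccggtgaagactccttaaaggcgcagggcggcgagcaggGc

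Hspa1a was at 1869, 2861 and 1223 CPM in WT replicates 1 to 3 and at 2900, 945 and 587 CPM in KO replicates 1 to 3. KO replicate 1 was the highest library and the other two KO libraries were the lowest, so the WT libraries lay within the range of KO. The difference between KO libraries was 4.94-fold, whereas WT averaged 1984 ± 825 CPM and KO 1477 ± 1245 CPM (SD, n = 3 each). The log2 fold change of KO against WT was -0.42 ± 0.73 (SE) and its adjusted p was 0.95 by edgeR's quasi-likelihood test. Leaving out KO replicate 1 gave -1.37, and leaving out KO replicate 3 gave -0.06. Hspa1b was at 1716, 2806 and 1170 CPM in WT and at 2813, 893 and 558 CPM in KO, with the same order of libraries. The ratio of Hspa1a to Hspa1b lay between 1.02 and 1.09 in the 6 libraries. Of the 2818 windows of 150 bases in the Hspa1a transcript, 1074 also occur in Hspa1b, so the split of reads between these genes is uncertain. Their sum does not depend on that split, although it lacks any reads that the counting discarded as ambiguous. That sum was 3585, 5666 and 2393 CPM in WT and 5713, 1838 and 1145 CPM in KO.

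**Figure D1:**
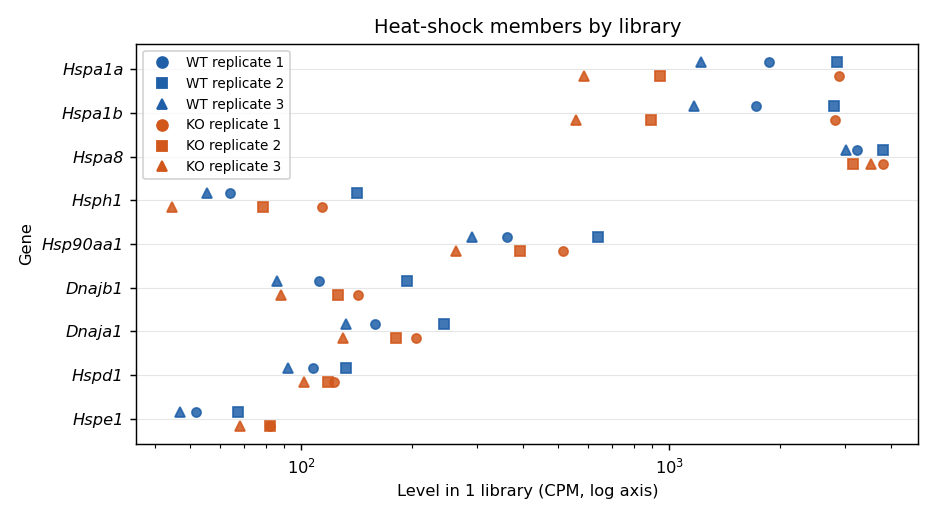
Level of each of the 9 heat-shock genes in each library, in TMM-scaled CPM on a log axis; blue is WT, orange is KO, and the marker gives the replicate. WT replicate 2 and KO replicate 1 sit at the right for most genes, and Hspa1a runs from 587 to 2900 CPM within KO.

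The constitutive HSP70 behaved differently in spread. Hspa8, which encodes the heat-shock cognate protein HSC70 of unstressed cells, was at 3245, 3806 and 3024 CPM in WT and at 3804, 3161 and 3540 CPM in KO. Its highest library was 1.26-fold above its lowest, and its log2 fold change was 0.06 ± 0.13. By length-scaled level it was the most abundant of the 36 genes, at a mean of 798 RPKM (CPM per kilobase of exon), followed by Hspa1b at 592, Dusp1 at 589 and Hspa1a at 583 RPKM. The length is the union of all annotated exons. For Dusp1 that is 3311 bases, against 1990 in its main transcript, whereas for Hspa1a both are 2967. The order of these close values therefore depends on the length used. Of the 2245 windows of 150 bases in its transcript, 55.99% also occur in annotated copies elsewhere, so its level depends on how the counting treated such reads.

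The other cytosolic chaperones were spread like inducible HSP70, over a smaller range. Hsp90aa1, the inducible form of HSP90, was at 362, 639 and 292 CPM in WT and at 513, 394 and 263 CPM in KO, giving a log2 fold change of -0.14 ± 0.36. Of its windows of 150 bases, 36.17% also occur in other annotated genes, so its level depends on how the counting treated such reads. Hsph1, an HSP110 that recharges HSP70 with nucleotide, ran from 44.5 CPM in KO replicate 3 to 142 CPM in WT replicate 2, with a log2 fold change of -0.12 ± 0.49. In both genes the groups overlapped. The J-domain proteins deliver clients to HSP70: Dnajb1 was at 112, 194 and 85.7 CPM in WT and at 143, 126 and 88.4 CPM in KO (log2 fold change -0.12 ± 0.31). Dnaja1 ran from 130 to 245 CPM (log2 fold change -0.05 ± 0.24). Its exons share 608 bases with Smu1 on the opposite strand, so its counts are uncertain if strand was not used.

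Hspe1 was the heat-shock gene with the smallest p. It encodes HSP10, the lid of the mitochondrial chaperonin, and is transcribed away from Hspd1, which encodes the barrel HSP60. The 250 bases before the RefSeq start of Hspe1 (chr1:55087898-55088147, plus strand, GRCm38.p6) are shown because they hold heat-shock elements, the sites to which HSF1 binds. Capitals mark 2 overlapping matches to an element of 3 alternating TTC and GAA units, with 2 bases between units. The same matches lie in a window of Hspd1 read from the other strand.
Hspe1: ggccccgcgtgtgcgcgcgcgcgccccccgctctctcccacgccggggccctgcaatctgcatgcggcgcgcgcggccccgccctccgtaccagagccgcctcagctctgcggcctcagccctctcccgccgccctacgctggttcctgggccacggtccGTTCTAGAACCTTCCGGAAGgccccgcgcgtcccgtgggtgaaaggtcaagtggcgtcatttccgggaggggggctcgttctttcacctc

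Hspe1 (ENSMUSG00000073676, chromosome 1, 55088132 to 55091307) was at 51.9, 67.3 and 46.9 CPM in WT and at 82.1, 82.1 and 68.2 CPM in KO. Every KO library lay above every WT library, KO replicate 3 by a small margin over WT replicate 2. The means were 55.4 ± 10.6 and 77.5 ± 8.04 CPM (SD, n = 3 each), a log2 fold change of 0.49 ± 0.17. The unadjusted p was 0.0122 and the edgeR quasi-likelihood adjusted p over all genes was 0.834, so the difference did not pass. On library totals without scaling factors, or with upper-quartile factors, the groups of Hspe1 overlapped. Hspd1 was at 108, 132 and 91.8 CPM in WT and at 123, 118 and 102 CPM in KO, giving a log2 fold change of 0.05 ± 0.15, and shares 112 exon bases with Hspe1 on the opposite strand.

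Among all 36 genes, 0 had an adjusted p under 0.05, as did 0% of the 12568 genes tested. At an unadjusted p under 0.05, 1 member was higher in KO (Hspe1) and 1 was lower (Btg2), where 2.71% of all genes tested were higher and 3.06% lower. Every KO library lay above every WT library for 2 members (Hspe1 and Klf6), against 5.46% of all genes, and below it for 0, against 5.19%. In this fit the counts of 1, 1 and 2 of 36 are near the background. The count at an unadjusted p under 0.05 depended on the method. DESeq2 gave 4 immediate-early and 1 heat-shock member, against 665 of 12568 genes. A block on the replicate number gave 5 and 1, against 942 genes, and limma-voom 2 and 1, against 657. Other scalings and filters gave 1 or 2 immediate-early members and 1 heat-shock member. When adjusted, DESeq2 called 10 genes of the whole table and limma-voom 0, with 0 members among them. The median log2 fold change was -0.21 over the 27 immediate-early genes and -0.12 over the 9 heat-shock genes, against 0.004 over all genes tested. Below 0 lay 19 of the 27 and 6 of the 9, against 49.4% of all genes. In simulated data with 200 of 12568 genes changed the test recovered 54% of 2-fold and 12% of 1.5-fold changes, so differences of the size seen here could go uncalled.

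**Figure D2:**
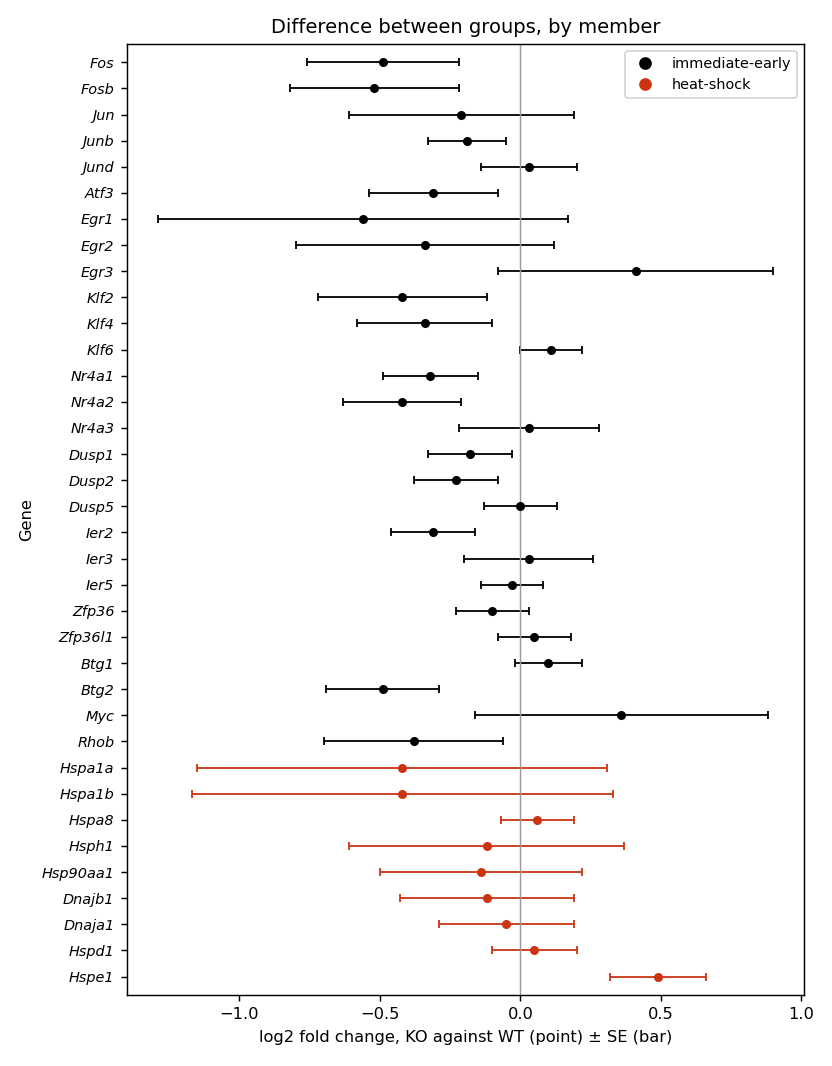
Log2 fold change of KO against WT for each member (point) with its SE (bar), grouped by role; values left of 0 are lower in KO. Most immediate-early genes lie between -0.56 and 0.11, the bars of Hspa1a, Hspa1b and Egr1 are the longest, and Hspe1 lies at 0.49.

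The AP-1 factors, which pair as FOS and JUN proteins on DNA, were led by Junb per length (522 RPKM). Fos (ENSMUSG00000021250, chromosome 12, 85473890 to 85477273) was at 867, 991 and 710 CPM in WT and at 874, 560 and 395 CPM in KO. KO replicate 1 lay within the WT range and the other two KO libraries lay below all of them. Its log2 fold change was -0.49 ± 0.27 (unadjusted p = 0.11, edgeR adjusted p = 0.838), and -0.84 without KO replicate 1. Fosb, a FOS-family partner, ran from 250 CPM in KO replicate 3 to 721 CPM in WT replicate 2 (-0.52 ± 0.30). Junb was at 1211, 1496 and 1137 CPM in WT and at 1260, 1106 and 1002 CPM in KO (-0.19 ± 0.14).

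Jun had another order of libraries. It was at 658, 461 and 408 CPM in WT and at 691, 247 and 386 CPM in KO, highest in KO replicate 1 and lowest in KO replicate 2, with a log2 fold change of -0.21 ± 0.40. Jund, the JUN protein with the steadiest expression in many cells, was at 414 ± 89.6 CPM on average in WT and 422 ± 64.9 in KO (SD, n = 3 each). An antisense gene covers 38.31% of its windows of 150 bases. Atf3, a stress-induced partner of JUN that represses inflammatory genes, was at 420 ± 110 CPM on average in WT and 339 ± 93.4 in KO (-0.31 ± 0.23).

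The EGR factors included 2 of the least abundant members. Egr1, the zinc-finger factor downstream of ERK and SRF, was at 164, 82.2 and 57.9 CPM in WT and at 125, 24.1 and 59.6 CPM in KO. It was highest in replicate 1 of both groups, and the range over libraries was 6.84-fold, the widest of the 36 genes. The log2 fold change was -0.56 ± 0.73, with -1.33 when KO replicate 1 was left out and -0.02 when WT replicate 1 was. Egr2 and Egr3, which restrain lymphocyte activation, were near 1 RPKM: Egr3 was at 2.86, 4.6 and 3.28 CPM in WT and at 2.17, 3.74 and 8.91 CPM in KO. These values rest on 30 to 101 counts a library, and KO replicate 3 was the highest. Without it the log2 fold change of Egr3 was -0.22 instead of 0.41. Egr2 lay between 1.69 and 5.94 CPM, and Myc, the growth regulator, between 1.52 and 6.08 CPM.

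The KLF factors divided by abundance and spread. Klf6, a broadly expressed zinc-finger factor (ENSMUSG00000000078, chromosome 13, 5861482 to 5870394), was at 1603, 1623 and 1549 CPM in WT and at 1800, 1659 and 1711 CPM in KO. The groups did not overlap, but the difference was a log2 fold change of 0.11 ± 0.11 and the edgeR adjusted p was 0.907. Its SD of log2 CPM within groups was 0.05, the smallest of the 36 genes. On library totals the groups of Klf6 overlapped. Klf2, the factor of quiescence, was at 401, 627 and 319 CPM in WT and at 451, 310 and 244 CPM in KO (-0.42 ± 0.30). Klf4, which promotes monocyte differentiation, was at 144, 166 and 95.1 CPM in WT and at 139, 98.8 and 82.3 CPM in KO (-0.34 ± 0.24). KO replicate 3 was the lowest library for both and the highest for the sum of the monocyte markers.

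The NR4A orphan receptors, which act without a known ligand, were highest in WT replicate 2 in all 3 cases. Nr4a1 was at 189, 302 and 247 CPM in WT and at 213, 176 and 203 CPM in KO (-0.32 ± 0.17, unadjusted p = 0.0863). Nr4a2 was at 131, 227 and 139 CPM in WT and at 143, 120 and 107 CPM in KO (-0.42 ± 0.21, unadjusted p = 0.07). Nr4a3, known from the migratory dendritic cell programme, was at 315, 616 and 425 CPM in WT and at 347, 529 and 507 CPM in KO (0.03 ± 0.25). It was lowest in replicate 1 of each group, where Egr1 was highest.

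**Figure D3:**
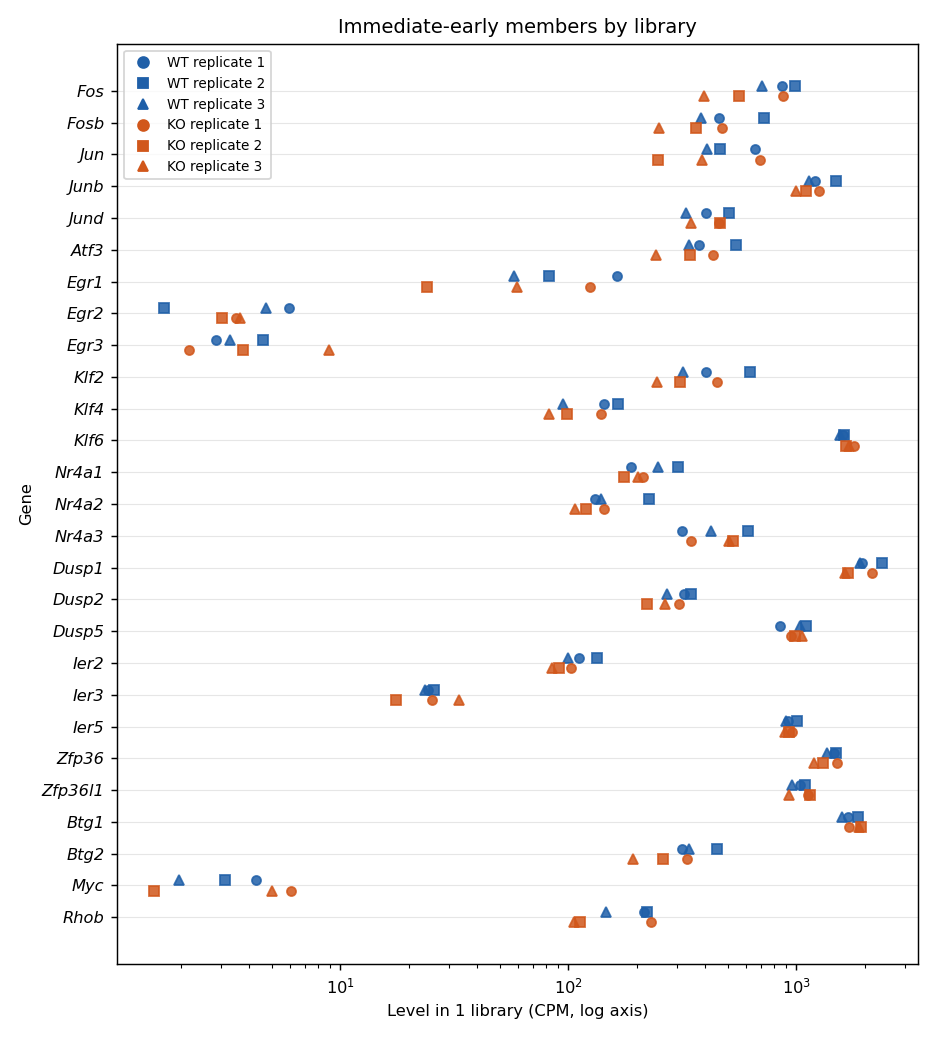
Level of each of the 27 immediate-early genes in each library, in TMM-scaled CPM on a log axis; blue is WT, orange is KO, and the marker gives the replicate. Egr1 and the genes under 10 CPM (Egr2, Egr3, Myc) spread widely, whereas the 6 markers of Klf6, Ier5, Zfp36 and Btg1 nearly coincide.

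Feedback inhibitors of MAP kinases were among the most abundant members. The upstream 250 bases of Dusp1 (chr17:26508473-26508722, minus strand) and Dusp5 (chr19:53528895-53529144, plus strand) are shown because they hold the 2 kinds of element named above. Capitals mark the CREB site TGACGTCA in Dusp1 and a pair of adjoining CArG boxes, the SRF site, in Dusp5.
Dusp1: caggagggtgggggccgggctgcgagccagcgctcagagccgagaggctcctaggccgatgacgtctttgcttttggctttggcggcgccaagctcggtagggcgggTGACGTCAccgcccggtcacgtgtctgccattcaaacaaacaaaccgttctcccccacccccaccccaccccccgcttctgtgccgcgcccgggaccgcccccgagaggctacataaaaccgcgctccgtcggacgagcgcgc
Dusp5: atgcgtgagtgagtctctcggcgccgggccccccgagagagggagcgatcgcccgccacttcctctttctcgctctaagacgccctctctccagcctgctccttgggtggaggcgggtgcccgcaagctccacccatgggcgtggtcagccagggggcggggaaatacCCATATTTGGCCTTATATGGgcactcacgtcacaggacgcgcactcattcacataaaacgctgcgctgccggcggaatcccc

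Dusp1, a nuclear phosphatase for p38 and JNK, was at 1945, 2379 and 1895 CPM in WT and at 2160, 1680 and 1636 CPM in KO (-0.18 ± 0.15). It followed the library order of Fos, over a range of 1.45-fold. Dusp5, a nuclear phosphatase for ERK, was at 852, 1106 and 1035 CPM in WT and at 948, 983 and 1061 CPM in KO, and the group means were 998 and 997 CPM. Dusp2, a nuclear phosphatase of immune cells, was at 321, 346 and 270 CPM in WT and at 307, 221 and 267 CPM in KO (-0.23 ± 0.15).

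Over the promoter windows that RefSeq gives for 30 of the 36 genes (not Egr1, Egr3, Ier2, Myc, Hspa8 and Hsp90aa1), from 250 bases before to 50 after each start, a set of motifs was searched on both strands, and matches of different motifs could overlap. Genes with several starts have several windows, which may overlap, so the counts are of windows: 27 of 23 immediate-early genes and 12 of 7 heat-shock genes. A CArG box (CC, 6 bases of A or T, then GG) was found in 6 of the 27 (4 of Egr2, and those of Dusp5 and Zfp36), and in 1.63% of all 32851 windows. TGACGTCA was found in 2 of the 27 (Btg2 and Dusp1), against 1.79% of all windows. The AP-1-like pattern TGANTCA, with any base at N, was found in 1 (Zfp36l1, as TGATTCA), against 7.81%. TATAAA was found in 5 (Btg1, Fos, Junb, Nr4a2 and Zfp36l1), against 13.62%. It began at -26, -33 and -29 bases from the start in Btg1, Fos and Zfp36l1. In Nr4a2 it was at -164 on the other strand, and in Junb just after the start. The heat-shock element was found in 4 of the 12 windows (1 of Hspd1, 1 of Hspe1 and 2 of Hsph1), against 0.6% of all windows. Only exact matches to all 3 units were counted. Windows without a match, such as those of Hspa1a, Hspa1b and Dnajb1, may still hold shorter or imperfect elements. The Hspd1 and Hspe1 matches are the same bases, and in Hsph1 the match lies after the start. Several of the Egr2 windows likewise hold the same CArG box.

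Genes that act after transcription were steadier, with 1 exception. Zfp36 encodes tristetraprolin, which binds AU-rich elements and shortens the life of cytokine mRNAs, and was at 1466, 1488 and 1359 CPM in WT and at 1504, 1317 and 1198 CPM in KO (-0.10 ± 0.13). Zfp36l1, a relative, was at 1031 ± 69.2 CPM on average in WT and 1070 ± 118 in KO, and Btg1, an anti-proliferative protein of quiescent cells, at 1714 ± 145 and 1837 ± 114 CPM (SD, n = 3 each). An antisense gene covers 48.43% of the windows of 150 bases of Zfp36l1, so its counts are uncertain if strand was not used. Btg2, which recruits the deadenylase that removes poly(A) tails (ENSMUSG00000020423, chromosome 1, 134075170 to 134079120), was at 316, 451 and 338 CPM in WT and at 331, 261 and 192 CPM in KO. KO replicate 1 lay between the WT libraries and the other two KO libraries below them. Its log2 fold change was -0.49 ± 0.20, with an unadjusted p of 0.0344 and an edgeR adjusted p of 0.834. It was -0.70 when KO replicate 1 was left out, and -0.32 when KO replicate 3 was.

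Of the IER proteins, Ier2 was at 112, 134 and 100 CPM in WT and at 103, 91.5 and 84.8 CPM in KO (-0.31 ± 0.15, unadjusted p = 0.0609). Ier5, which activates HSF1, was at 924, 1005 and 906 CPM in WT and at 956, 926 and 891 CPM in KO, a range of 1.13-fold and a log2 fold change of -0.03 ± 0.11. Ier3, an NF-kB target that affects survival, was at 24.5 ± 1.12 CPM on average in WT and 25.4 ± 7.79 in KO. Rhob, an endosomal GTPase, was at 214, 222 and 147 CPM in WT and at 230, 113 and 106 CPM in KO (-0.38 ± 0.32).

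The libraries of a group differed from each other in an order that many members shared. All 9 heat-shock genes were highest in WT replicate 2 and lowest in WT replicate 3 among the WT libraries, an order found in 18.5% of all genes tested. Among the KO libraries 8 of the 9 were highest in replicate 1 and lowest in replicate 3, against 19.8% of all genes, with Hspa8 the exception. Both orders together held for 8 of 9 heat-shock genes and 11 of 27 immediate-early genes (Fos, Fosb, Junb, Atf3, Klf2, Klf4, Dusp1, Ier2, Ier5, Zfp36 and Rhob), against 4.27% of all genes. These orders were picked after the values were seen, and the genes share libraries and scaling, so the counts are a description.

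In summed level the 9 heat-shock genes took 0.785, 1.08 and 0.627% of all counts in WT, and 1.09, 0.587 and 0.519% in KO. The 27 immediate-early genes summed to 15844, 18491 and 14759 CPM in WT and to 16812, 14690 and 13838 CPM in KO. In both sums WT replicate 2 and KO replicate 1 were the highest libraries and KO replicates 2 and 3 the lowest. The mean centred log2 level of the heat-shock genes was -0.04, 0.58 and -0.36 in WT and 0.45, -0.09 and -0.54 in KO. That of the immediate-early genes was 0.11, 0.27 and -0.10 in WT and 0.14, -0.26 and -0.16 in KO, a narrower range.

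The 5 markers of mature migratory dendritic cells summed to 13792, 12603 and 13332 CPM in WT, against 13348, 15879 and 18204 CPM in KO. Their sum was thus highest in the 2 KO libraries where both member sums were lowest, KO replicates 2 and 3. Fscn1 (6223 and 7495 CPM there) and Ccl22 (3653 and 4732 CPM) carried most of that difference. Ccr7 was only slightly above WT replicate 2, and Lamp3 was under 1 CPM in every library. Cd40 went the other way in KO replicate 2, at 533 CPM against 552 to 578 CPM in WT. The part of these markers in that pattern was not tested.

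**Figure D4:**
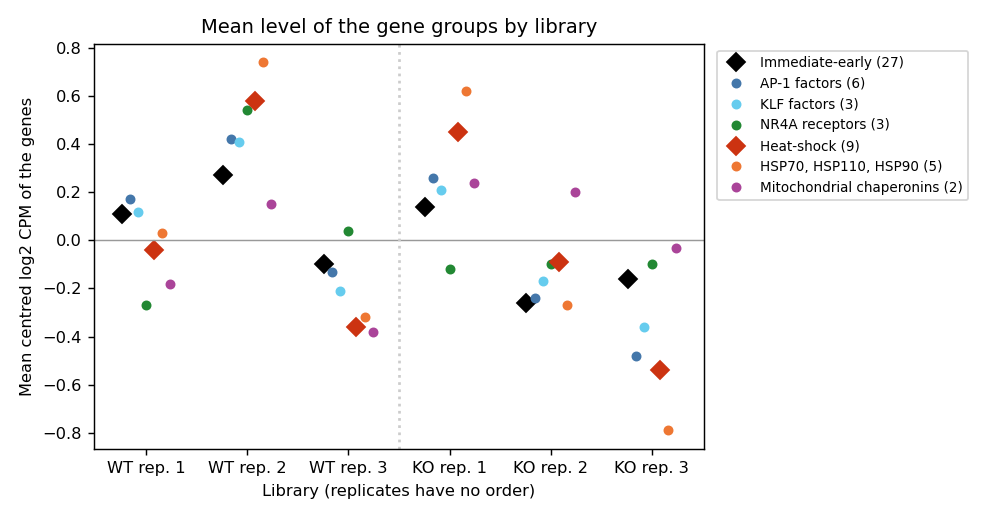
Mean centred log2 CPM of each gene group in each library; diamonds are all immediate-early (black) and all heat-shock genes (red), and dots are role groups within them, with the number of genes in brackets. The heat-shock diamonds reach 0.58 in WT replicate 2 and 0.45 in KO replicate 1 and reach -0.54 in KO replicate 3.

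The medians changed when single libraries were left out. Without WT replicate 2 the median log2 fold change of the heat-shock genes was 0.24 instead of -0.12, and that of the immediate-early genes -0.08 instead of -0.21. Without WT replicate 3 they were -0.36 and -0.27, without WT replicate 1 -0.22 and -0.17, and without KO replicate 2 -0.13 and -0.14. Without KO replicate 1 they were -0.27 and -0.35, and 10 immediate-early and 3 heat-shock genes had an unadjusted p under 0.05, with 0 members passing when adjusted. In that fit 12.3% of all genes (1621 of 13173) had such a p, against 725 of 12568 with all libraries. Without KO replicate 3, where the summed monocyte markers were highest, they were 0.07 and -0.19.

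Within groups, abundant members were more variable than other abundant genes. For the 2158 genes averaging at least 100 CPM, the median SD of log2 CPM within groups was 0.16. It was 0.27 for the 22 immediate-early genes and 0.50 for the 7 heat-shock genes at that level, and 16 and 6 of them lay above 0.16. Hspa1b and Hspa1a ranked 7 and 8 of the 2158 by this spread, Jun 26, Hsp90aa1 34, Dnajb1 44 and Rhob 46. At the other end Klf6 ranked 2120 and Ier5 2049, so both extremes occur within the set.

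**Figure D5:**
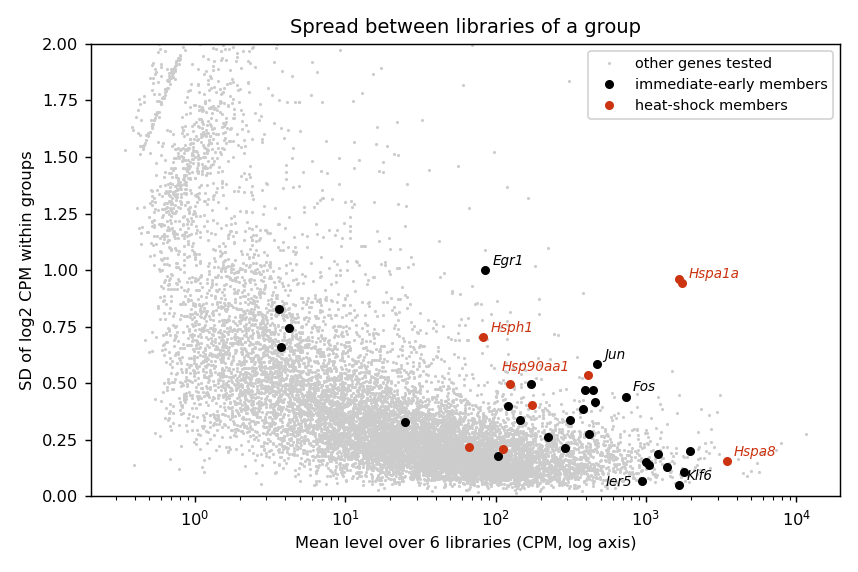
SD of log2 CPM within groups (both groups pooled) against the mean level over 6 libraries on a log axis, for all genes tested (grey), immediate-early members (black) and heat-shock members (red); 153 genes lie above the top of the plot. Hspa1a and Hspa1b stand above most other genes of their level, whereas Klf6 and Ier5 lie among the steady ones and Hspa8 lies near the middle.

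Relatives outside the set were taken from lists of early-response, upstream and chaperone genes. Of 45 other immediate-early and early-response genes 41 were tested, and 31 lay below 0 (49.4% of all genes did), with a median log2 fold change of -0.13. None passed when adjusted, an unadjusted p under 0.05 was found for 5 that were lower (Fosl2, Sik1, Per1, Sgk1 and Zfp36l2) and 1 that was higher (Plk2), against 3.06% and 2.71% of all genes tested. For 5 every KO library was below every WT library, against 5.19% of all genes. Per1, a clock gene that is also induced by CREB and glucocorticoids, was at 183, 263 and 221 CPM in WT and at 155, 152 and 118 CPM in KO (-0.65 ± 0.16, unadjusted p = 0.00204, edgeR adjusted p = 0.834). Sgk1, a serum- and glucocorticoid-induced kinase, was at 108, 127 and 97.7 CPM in WT and at 80.1, 87 and 56.6 CPM in KO (-0.57 ± 0.17). Unlike Fos, both were lower than every WT library also in KO replicate 1. The other 3 were Zfp36l2 (-0.44 ± 0.15), Dusp8 (-0.44 ± 0.23) and Csrnp1 (-0.14 ± 0.11), named after their values were seen.

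Genes upstream of the immediate-early response were also listed. Of 26 genes for SRF, its cofactors, CREB and MAP kinases, all tested, 15 lay above 0 with a median of 0.03. At an unadjusted p under 0.05, 1 was higher, near the 2.71% of all genes, and none passed when adjusted. That gene was Elk1, an SRF cofactor, at 6.41 ± 0.696 CPM on average in WT and 10.9 ± 2.40 in KO (0.75 ± 0.28), and Map2k2, the ERK kinase MEK2, followed at 132 ± 6.20 and 152 ± 14.2 CPM (SD, n = 3 each).

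Most chaperones outside the set had values above 0, none of which passed when adjusted. All 8 subunits of the cytosolic chaperonin TRiC lay above 0, as did 50.6% of all genes, with a median of 0.14, and 3 of them (Cct2, Cct4 and Cct6a) had every KO library above every WT library, against 5.46% of all genes. Cct6a was at 91.8, 92.2 and 86.3 CPM in WT and at 101, 127 and 123 CPM in KO (0.38 ± 0.13), and Cct2 at 268 ± 4.86 and 309 ± 17.1 CPM (0.21 ± 0.11). Of 36 other chaperones and co-chaperones tested, 26 lay above 0 with a median of 0.09, against 50.6% of all genes above 0. An unadjusted p under 0.05 was found for 2 higher and 1 lower, near the 2.71% and 3.06% of all genes. Hsp90ab1, the constitutive HSP90, was at 1750, 1787 and 1651 CPM in WT and at 2060, 2102 and 2247 CPM in KO (0.30 ± 0.11, unadjusted p = 0.0214). Its inducible relative Hsp90aa1 overlapped between the groups. St13, which links HSP70 to HSP90, was at 65 ± 1.55 CPM on average in WT and 90.5 ± 10.3 in KO (0.48 ± 0.14), and Hspa2 was the gene that was lower (-0.44 ± 0.18).

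Hsf1, the main heat-shock factor, was at 22.8 ± 3.66 CPM on average in WT and 22.9 ± 2.94 in KO (0.02 ± 0.20). Hsf2 was at 27.6, 26.6 and 22.9 CPM in WT and at 29.3, 43 and 43.5 CPM in KO (0.59 ± 0.20, unadjusted p = 0.0116), and Hsbp1, which binds HSF1, at 41.9 ± 1.09 and 53.5 ± 11.8 CPM (SD, n = 3 each). Every KO library lay above every WT library for both, against 5.46% of all genes, and KO replicate 1 was only slightly above. An unadjusted p under 0.05 with a higher level in KO was found for 2.71% of all genes. None of the chaperone or heat-shock factor genes passed when adjusted over all genes (edgeR adjusted p = 0.834 for Hsf2, St13, Hsp90ab1 and Cct6a).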

How the data were processed

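The authors deposited 1 table of raw read counts for 6 libraries, indexed by Ensembl gene. According to the submitters' processing notes, the tools were HISAT2 2.0.5 and HTSeq, with mm10. How the counting used annotation, strand and ambiguous reads is not stated in them. Columns were matched to samples by the library label in each description. GENCODE M21 named 99.8% of the features. Genes were kept by filterByExpr, TMM factors were applied, and edgeR 4.0.16 was run in R 4.3.3 (glmQLFit with robust estimation and legacy off, glmQLFTest), KO against WT without further terms, with Benjamini-Hochberg adjustment over all 12568 genes and a threshold of 0.05. The SE is the log2 fold change divided by the square root of F. RPKM were computed here from CPM and the exon-union length. Log2 CPM used a prior count of 2. Promoter sequences are from RefSeq (GRCm38.p6). DESeq2 1.42.0 and limma 3.58.1 (voom) were alternatives. The test was checked on simulated counts (200 changed genes); 8 of 132 calls were false.

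The members and lists were chosen with earlier results of these data known. All 36 members are named. Values in every library are given for those with an unadjusted p under 0.05, for the smallest p and the highest RPKM of each role group, and for Fos, Jun, Egr1, Nr4a1, Dusp1, Hspa1a and Hspa1b; of every other list, the 2 genes with the smallest p are named, with means or library values. Every pair of libraries differed beyond sampling noise (chi-square per degree of freedom between 17.3 and 52.8).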

Additional observations from a re-analysis of the deposited data

How the results depend on the processing

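No member passed when adjusted under any alternative. Over all genes, 3 passed without a filter and 10 with DESeq2. With single libraries left out, between 0 and 7 passed, and between 376 and 1621 had an unadjusted p under 0.05. The median log2 fold change then lay between -0.35 and -0.08 for the immediate-early members and between -0.36 and 0.24 for the heat-shock members. In the other alternatives both medians stayed below 0. The number of members whose groups did not overlap, 2, was 1 (Klf6) with upper-quartile factors and 0 on library totals.

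Signs turned for members near 0: on library totals Nr4a3 (-0.00) and Ier3 (-0.01), with limma-voom Dusp5 (0.01) and Ier3 (-0.03), and with the replicate block Dusp5 (0.01). With 1 library left out the sign turned for 15 members. Their ranges were -0.69 to 0.07 for Jun, -0.11 to 0.20 for Jund, -0.17 to 0.31 for Nr4a3, -0.10 to 0.07 for Dusp5, -0.06 to 0.01 for Ier5, -0.20 to 0.24 for Ier3, -0.02 to 0.14 for Zfp36l1, -0.22 to 0.74 for Egr3 and -0.07 to 0.83 for Myc. For the chaperones they were -0.46 to 0.41 for Hsph1, -0.39 to 0.25 for Hsp90aa1, -0.36 to 0.27 for Dnajb1, -0.23 to 0.24 for Dnaja1, -0.01 to 0.15 for Hspa8 and -0.07 to 0.19 for Hspd1. The cause was not tested.

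The labels do not say whether a replicate number marks a pair of libraries. Over all genes tested, deviations from the group mean correlated at 0.005, 0.028 and -0.001 for same-numbered libraries. All pairings lay between -0.061 and 0.044. A correlation over all genes cannot show whether a smaller set of genes shared a batch, so pairing remains unknown. With the replicate block 942 genes had an unadjusted p under 0.05, against 725, and 0 passed. The earlier quasi-likelihood method of edgeR, added after the data were examined, gave 629 and 0. Depth limits Egr2, Egr3 and Myc, where single libraries hold as few as 25 counts.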
